A study of Mus musculus with 8 samples.

Results

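Lipocalin 2 and 9 genes of iron handling were followed in the cerebral cortex of mice whose blood vessel cells can lose the kinase TAK1. The set holds Lcn2, the ferrireductase genes Steap4 and Steap3, the ferroxidase gene Cp, transferrin (Trf) and its receptor (Tfrc), the ferritin heavy chain gene Fth1, the iron transporters Slc40a1 and Slc11a2, and the heme oxygenase gene Hmox1. All 10 were found by symbol among the 28732 genes of the deposited table, and all 10 were among the 15564 genes tested. They were chosen by name with measured fold changes of this same comparison in view, so their values are a description and carry no p-value here.

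Both groups were Tak1fl/fl mice treated with tamoxifen, given as postnatal day 90 in the labels and as 12 to 14 weeks old in the series text. The 4 knockout libraries came from Cdh5-CreER::Tak1fl/fl mice, whose inducible recombinase is driven by an endothelial promoter, and the 4 control libraries from littermates without it. Controls are numbered 1 to 4 and knockouts 2 to 5, as in the deposited table, and nothing in the labels says that each is a separate animal. The RNA was that of whole cortex, although the promoter is one of endothelial cells and not of neurons or glia. In such bulk RNA, fewer cells of a type and less RNA per cell cannot be told apart.

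Iron reaches the brain across the vessel wall, bound to transferrin in plasma and taken up through the transferrin receptor. Inside cells it is stored in ferritin, and it leaves them through ferroportin, the product of Slc40a1, with the help of copper ferroxidases such as ceruloplasmin. Lipocalin 2 binds the siderophores with which bacteria gather iron, and it is released in the acute-phase response. Iron regulatory proteins adjust ferritin, ferroportin and transferrin receptor after transcription, so RNA levels alone do not give the protein or the iron.

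Stretches of sequence before the RefSeq starts of Lcn2 and Steap4 are shown because these genes had the highest fold changes of the set. They come from RefSeq (GRCm38.p6) and are written 5′ to 3′ on the gene's strand. For Lcn2 the annotations differ: GENCODE M21, used for gene positions here, holds a transcript that starts further upstream, at the outer end of the gene, so both Lcn2 stretches lie within the gene as GENCODE gives it. Capitals mark matches, on either strand, to short patterns of 4 kinds of transcription factor, picked with the results known: TTGCNNAA for C/EBP, ACANNNTGT for the glucocorticoid receptor, TTCNNNGAA for STAT and GGGANNNCC for NF-kB.
Lcn2, chr2:32387937-32387966, minus strand: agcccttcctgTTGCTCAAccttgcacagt
Lcn2, chr2:32387873-32387902, minus strand: caagtatttcaACAGAATGTactggcaatt
Steap4, chr5:7960222-7960456, plus strand: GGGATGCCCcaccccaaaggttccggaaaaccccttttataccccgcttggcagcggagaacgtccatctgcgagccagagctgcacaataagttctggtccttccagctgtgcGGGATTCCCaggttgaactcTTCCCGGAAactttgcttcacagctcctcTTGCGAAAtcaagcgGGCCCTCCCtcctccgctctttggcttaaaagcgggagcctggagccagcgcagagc

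In the 250 bases before the RefSeq start, Lcn2 held 1 C/EBP pattern and 1 glucocorticoid receptor pattern, and none of the other 2 patterns. Steap4 held 1 C/EBP, 1 STAT and 3 NF-kB patterns, and no glucocorticoid receptor pattern. No 2 of these matches overlapped. Of 32851 windows of the same length, 9.56% held the C/EBP, 5.84% the glucocorticoid receptor, 7.02% the STAT and 15.8% the NF-kB pattern. A match is a run of letters and not a measured binding site. A site spelled or spaced otherwise gives no match, so the lack of a match does not mean that no site is present. Windows were at hand for 6 of the 10 genes, so Trf, Slc40a1, Slc11a2 and Hmox1 were not searched. The windows of 4 further genes, some with several starts, held matches too, also where the gene was not called. Steap3 had NF-kB patterns in 2 of its windows and a C/EBP pattern in 1, Tfrc had an NF-kB pattern, and Cp and Fth1 had C/EBP patterns.

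Lcn2 (chr2:32384633-32388252, minus strand, GRCm38) was close to undetected in control cortex and plainly present in every knockout. It received 10, 0, 4 and 6 reads in controls 1 to 4, and 205, 109, 83 and 199 reads in knockouts 2 to 5. As CPM, a gene's reads relative to the TMM-scaled size of its library, this was 0.718, 0, 0.219 and 0.404 CPM across controls and 11.9, 8.26, 4.85 and 13.5 CPM across knockouts. The groups lay far apart, and knockout 4 was the lowest of the knockouts and still 14.5-fold above the control mean. The 0 in control 2 allows a level of up to 0.188 CPM, which is 3 reads in that library and covers counting error only. The log2 fold change over control was 4.87 ± 0.56 (SE), from 0.335 ± 0.304 to 9.63 ± 3.87 CPM (mean ± SD, n = 4 each).

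Across all genes, edgeR's quasi-likelihood test called 6.43% at an adjusted p of 0.05, 3.44% higher and 2.99% lower in knockouts. Of the 10 iron genes, 4 were called higher (Lcn2, Steap4, Fth1 and Cp) and 0 lower. The latter count was 2 at an unadjusted p of 0.05 (Steap3 and Slc40a1), and 0 with DESeq2 or limma voom. Every library of 1 group lay beyond every library of the other in 6 of the 10, the 4 called genes with Slc11a2 and Slc40a1, against 16.2% of all tested genes. In the authors' deposited table, 5 of the 10 had an adjusted p below 0.05, the same 4 and Slc11a2, against 10.2% of genes with a value there. Because the genes were chosen with this comparison known, nothing is read from these counts. The median log2 fold change was 0.50 in the set and -0.0021 over all tested genes.

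**Figure D1:**
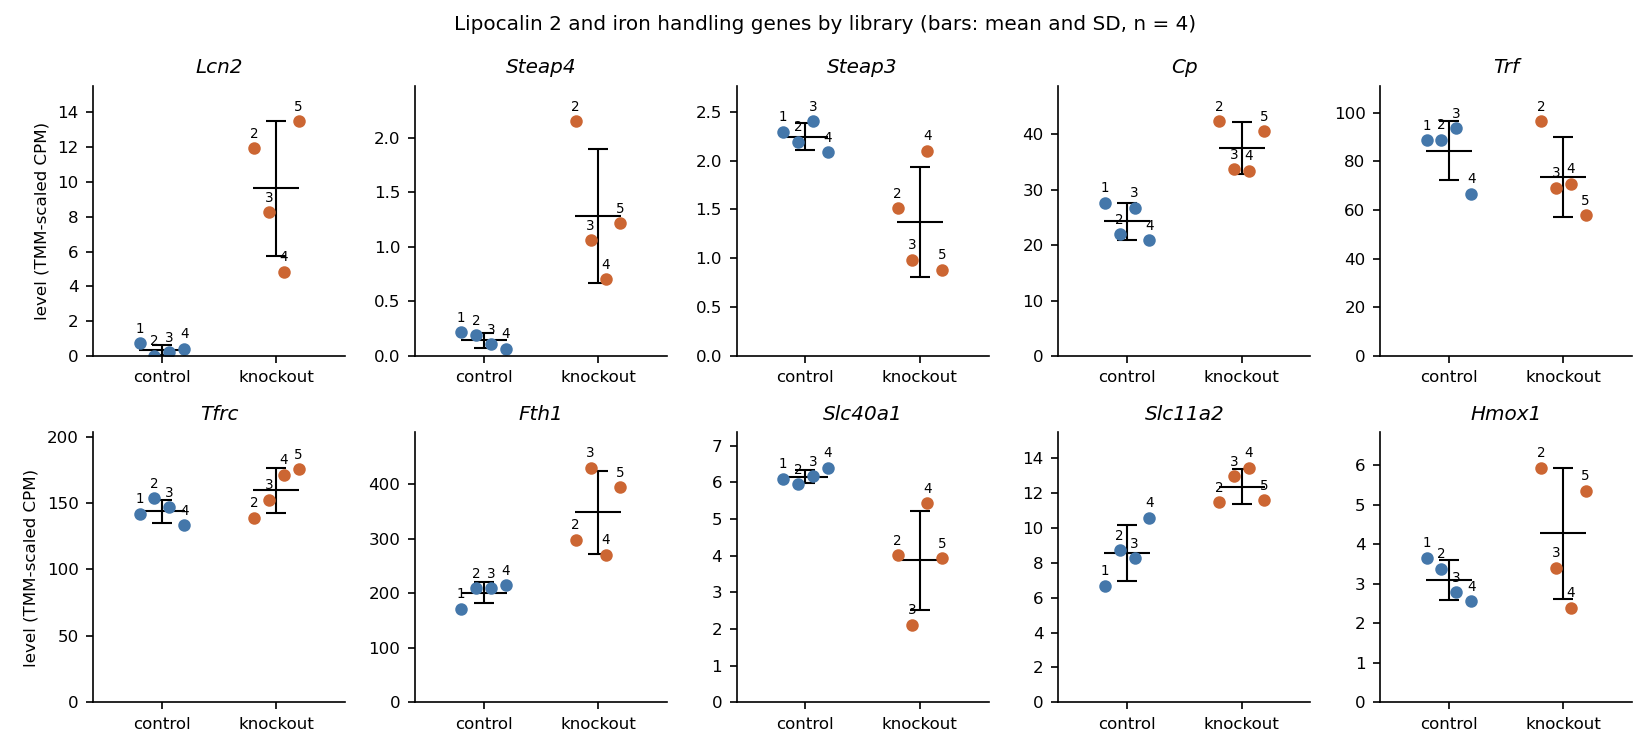
Level of each of the 10 genes (y axis, TMM-scaled CPM, starting at 0) in 4 control and 4 knockout libraries. Numbers beside the points are library numbers, and black bars give the mean and SD (n = 4). Lcn2 and Steap4 lie near the floor in controls, and Slc40a1 is tightly grouped in controls and spread in knockouts.

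Of the 2 ferrireductase genes of the set, Steap4 was called higher and Steap3 was not called. STEAP proteins reduce ferric iron and copper at membranes. STEAP3 is the reductase of transferrin endosomes in red cell precursors, and STEAP4 is known from inflamed and fat tissue. Steap4 (chr5:7960457-7982213) had 3, 3, 2 and 1 reads in controls and 37, 14, 12 and 18 in knockouts 2 to 5. Its level was 0.215, 0.188, 0.109 and 0.0673 CPM across controls and 2.15, 1.06, 0.701 and 1.22 CPM across knockouts. Knockout 2 was the highest, knockout 4 the lowest, and no control reached any knockout. On the log2 scale the fold change was 3.10 ± 0.53, resting on few reads in every control.

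Steap3 (chr1:120190757-120272705) stood at 2.30, 2.19, 2.40 and 2.09 CPM across controls and at 1.51, 0.985, 2.10 and 0.881 CPM across knockouts. Knockouts 2, 3 and 5 were below every control, while knockout 4 lay within the control range. Its log2 fold change was -0.69 ± 0.31, and it was not called. Of the other members of the family, measured outside the chosen set, Steap2 stood at 25.0 ± 2.77 CPM across controls and 29.97 ± 3.71 CPM across knockouts (edgeR adjusted p = 0.230). Steap1 was removed by the filter on low counts, at 0, 0.251, 0 and 0.0673 CPM across controls and 0.815, 0.985, 0.409 and 0.677 CPM across knockouts.

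Fth1 (chr19:9980598-9985098) encodes the ferritin subunit that oxidises iron for storage. It was the most abundant of the 10 genes and was higher in knockouts. Its levels were 172, 210.0, 209.6 and 215 CPM across controls and 298, 430.5, 271 and 395 CPM across knockouts 2 to 5. Every knockout exceeded every control, knockout 3 the most and knockout 4 the least. The means were 201.5 ± 20.0 and 349 ± 76.4 CPM, a log2 fold change of 0.79 ± 0.15. Ferritin genes have many processed copies, 2 of which, Fth-ps2 and Fth-ps3, are in the table with at most 4 reads in any library. How reads shared with such copies were counted is not given in the sources used here, so the level of Fth1 is uncertain.

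The gene of the light chain, Ftl1, was measured outside the chosen set. It stood at 1.22, 2.01, 3.88 and 6.94 CPM across controls and at 8.90, 5.30, 10.8 and 14.97 CPM across knockouts. Knockout 3 lay below control 4, and the gene was not called (1.505 ± 0.51, edgeR adjusted p = 0.107), although limma voom called it, as did edgeR without control 4. It carries the same uncertainty about copies. The ferritin receptor for autophagy, Ncoa4, stood at 3.53 ± 0.595 and 3.56 ± 0.206 CPM (adjusted p = 0.988 in edgeR).

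Cp (chr3:19957054-20009145) encodes ceruloplasmin, the copper enzyme that oxidises iron on its way out of cells and that astrocytes carry at their surface. It stood at 27.6, 21.9, 26.8 and 20.9 CPM across controls and at 42.4, 33.7, 33.5 and 40.6 CPM across knockouts. The groups did not overlap, control 1 and knockout 4 lying closest to each other. Its log2 fold change was 0.63 ± 0.14. Part of Cp is overlapped on the other strand by Hps3, which had at most 259 reads in a library, and it is not stated whether counting used strand.

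A second ferroxidase, hephaestin (Heph), was not among the chosen genes and rose as well. It stood at 4.95, 4.57, 5.68 and 4.11 CPM across controls and at 10.1, 9.24, 7.01 and 12.1 CPM across knockouts. All 4 knockouts were above all 4 controls, with a log2 fold change of 0.99 ± 0.19 (edgeR adjusted p = 0.0150). Heph was no longer called without control 2 or without knockout 5.

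Neither membrane transporter of iron was called, although the groups did not overlap for either. Slc40a1 (chr1:45908068-45926523) encodes ferroportin, the iron exporter of mammalian cells. It was at 6.10, 5.95, 6.17 and 6.40 CPM across controls and at 4.02, 2.12, 5.43 and 3.93 CPM across knockouts 2 to 5. Every knockout was below every control, and the SD grew from 0.186 CPM across controls to 1.36 CPM across knockouts. Its log2 fold change of -0.66 ± 0.24 was called lower when knockout 4 was left out (-0.85).

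Slc11a2 (chr15:100387898-100425072) encodes DMT1, which carries ferrous iron across the plasma membrane and out of endosomes. It was at 6.68, 8.71, 8.25 and 10.6 CPM across controls and at 11.5, 12.96, 13.4 and 11.6 CPM across knockouts. The groups did not overlap, but control 4 came close to knockout 2. The log2 fold change of 0.53 ± 0.16 was not called by edgeR, and it was called by DESeq2 and without control 4. In the authors' deposited table its log2 fold change was 0.53 with an error of 0.18.

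The zinc transporters that also carry iron, Slc39a14 and Slc39a8, lay outside the chosen set. Slc39a14 stood at 15.4 ± 1.90 CPM across controls and 15.5 ± 2.38 CPM across knockouts (edgeR adjusted p = 0.987). Slc39a8 stood at 3.35 ± 0.245 and 3.61 ± 0.717 CPM (edgeR adjusted p = 0.781).

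The plasma carrier and its receptor overlapped between groups. Trf (chr9:103204001-103230444), which in brain is made mostly by oligodendrocytes and choroid plexus, was at 88.6, 88.8, 93.7 and 66.7 CPM across controls and 96.4, 69.1, 70.7 and 57.9 CPM across knockouts. Knockout 2 was the highest of all 8 libraries and knockout 5 the lowest, and the log2 fold change was -0.20 ± 0.16. The annotated readthrough gene Gm20425 overlaps Trf on the same strand and has no value here. Tfrc (chr16:32608920-32632794), which brain endothelial cells and neurons carry, was at 142, 154, 147 and 133 CPM across controls and 139, 152, 171 and 175 CPM across knockouts. Only knockouts 4 and 5 exceeded the highest control, and the log2 fold change was 0.15 ± 0.10.

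Hmox1 (chr8:75093621-75100589) encodes heme oxygenase 1, the inducible enzyme that frees iron from heme. It was at 3.66, 3.38, 2.79 and 2.56 CPM across controls and at 5.94, 3.41, 2.40 and 5.35 CPM across knockouts 2 to 5. Knockouts 2 and 5 stood above the controls, knockout 3 lay among them and knockout 4 below them. Its log2 fold change of 0.47 ± 0.28 was not called. Its constitutive partner Hmox2 was at 43.5 ± 5.204 CPM across controls and 45.2 ± 10.6 CPM across knockouts (edgeR adjusted p = 0.868).

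Hmox1 is a target of the oxidative stress factor NRF2 and is held back by BACH1. Of 10 listed regulators and NRF2 targets, 2 rose, against 3.44% of all tested genes, and none fell in edgeR (no fall at an unadjusted p of 0.05, or in DESeq2 or limma voom). Their median log2 fold change was 0.09. Nqo1, a quinone reductase, rose from 1.64 ± 0.511 to 4.16 ± 1.03 CPM (1.33 ± 0.29, edgeR adjusted p = 0.0199). Gclm, a subunit of the first enzyme of glutathione synthesis, rose from 42.4 ± 7.07 to 60.3 ± 6.49 CPM (0.51 ± 0.13, edgeR adjusted p = 0.0402). Neither was called without control 1, control 2 or knockout 5, nor Gclm without knockout 2. The factor genes themselves did not pass, Nfe2l2 at -0.26 ± 0.17 (edgeR adjusted p = 0.373) and Bach1 at 0.40 ± 0.14 (edgeR adjusted p = 0.0872).

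Per kilobase of merged exons, the order of the 10 genes in controls was as follows. Fth1 led with 58.1 ± 5.77 CPM per kb, followed by Trf (25.4 ± 3.64) and Tfrc (23.3 ± 1.39), which did not differ beyond their spread. Cp stood at 2.54 ± 0.355, Hmox1 at 1.77 ± 0.292 and Slc11a2 at 1.35 ± 0.252 CPM per kb, the last pair within their spread. Slc40a1 (0.684 ± 0.0206), Steap3 (0.393 ± 0.0237), Lcn2 (0.128 ± 0.116) and Steap4 (0.0460 ± 0.0217) closed the order in controls, the last pair within their spread. In knockouts Lcn2 moved from rank 9 to rank 5, at 3.67 ± 1.47 CPM per kb, next to Cp at 3.92 ± 0.482. Steap4 had rank 9 in knockouts (0.407 ± 0.196), within its spread of Steap3 (0.240 ± 0.0982) and of Slc40a1 (0.431 ± 0.151). Per kb of the longest transcript the order in controls was the same, while in knockouts Slc11a2 (2.80) stood above Hmox1 (2.72).

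**Figure D2:**
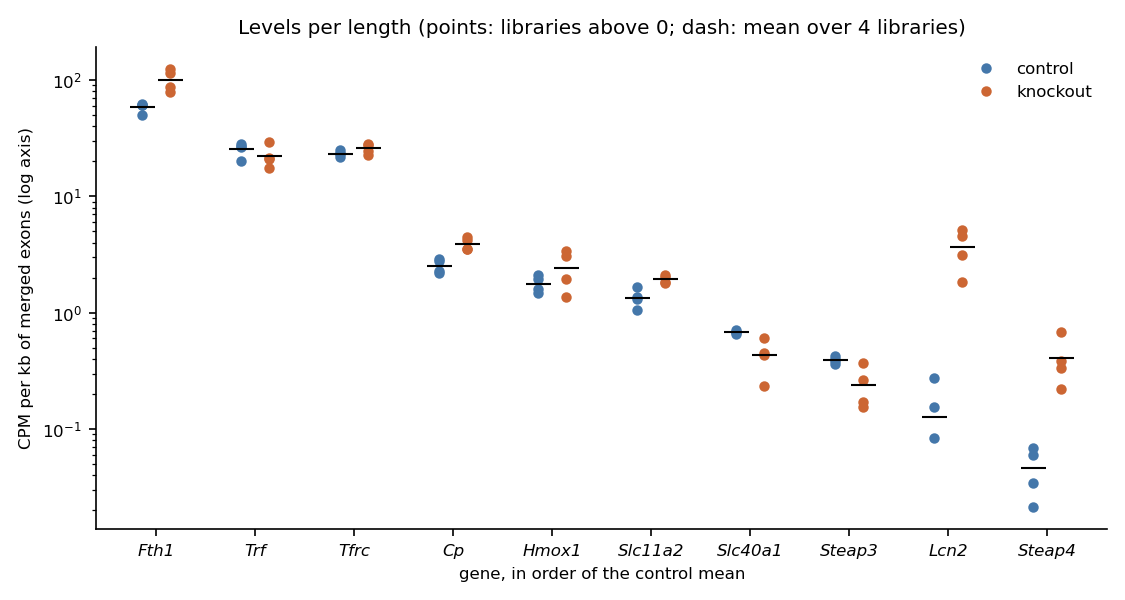
Level per kb of merged exons (y axis, CPM per kb, log axis) for the 10 genes in the order of the control mean. Points are libraries above 0 and dashes the means over 4 libraries. Fth1 leads in both groups, and Lcn2 moves from rank 9 in controls to rank 5 in knockouts.

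The knockout libraries differed from each other across these genes, and why they differed was not tested. Knockout 4 was the nearest knockout to the control mean for 6 of the 10 genes (Lcn2, Steap4, Steap3, Cp, Fth1 and Slc40a1), knockout 2 for 3 and knockout 3 for 1. Knockout 5 was the farthest for 4 genes and the nearest for none, while knockout 4 was the farthest for Slc11a2. The spread among knockouts was 40.2% of the mean for Lcn2 and 48.2% for Steap4. It was 35.0% for Slc40a1, 41.0% for Steap3 and 38.7% for Hmox1, against 3.01%, 6.04% and 16.5% in controls. The relative spread was smaller in knockouts than in controls for Slc11a2 (7.98% against 18.8%), Cp (12.3% against 14.0%) and Lcn2 (40.2% against 90.7%). For Lcn2 the control spread rests on 10, 0, 4 and 6 reads, so counting error is a large part of it.

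**Figure D3:**
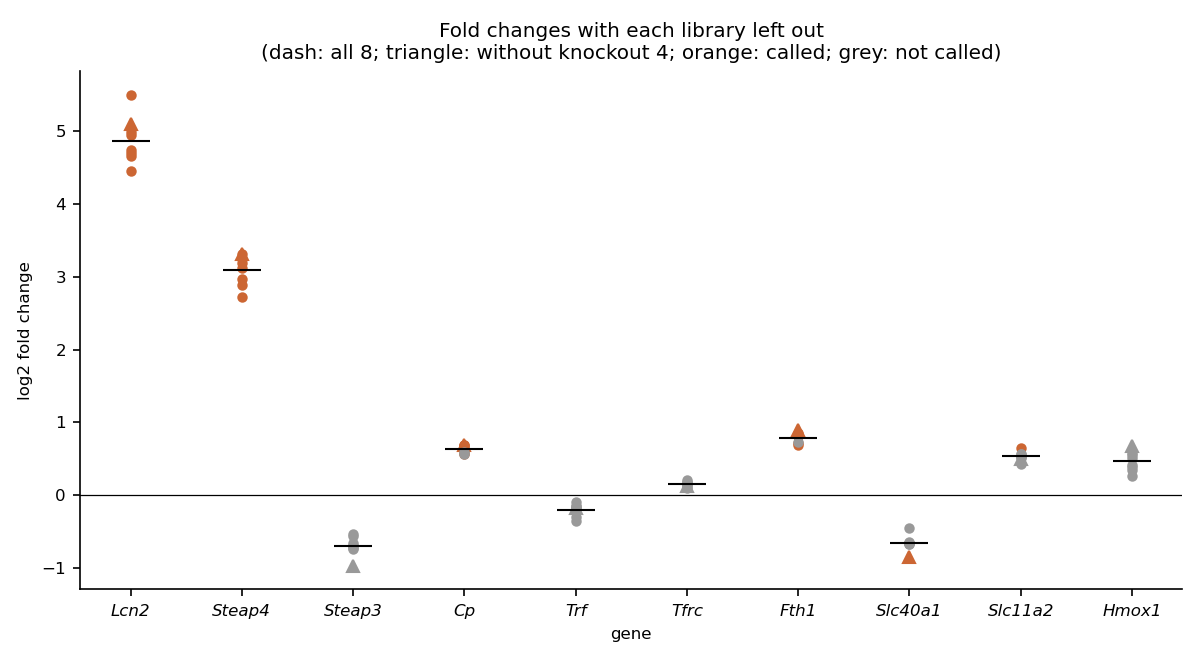
Log2 fold change of each of the 10 genes (y axis) in all 8 libraries (dash) and with each library left out (points). The triangle leaves out knockout 4, and orange marks values called at an adjusted p of 0.05. Lcn2 and Steap4 are called in every case, and no gene changes sign.

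The genes whose log2 CPM followed Lcn2 most closely over the 8 libraries, among 14437 genes of at least 1 CPM, were Gm37885, Hk2, Wdr26, F3 and Vdac2. Pearson's r was 0.987, 0.985, 0.981, 0.980 and 0.979 in that order, a measure of likeness given with no test. F3, the tissue factor gene that starts coagulation, stood at 16.8 ± 2.25 CPM across controls and 26.5 ± 1.12 CPM across knockouts. Hk2, a hexokinase gene, stood at 1.33 ± 0.257 and 2.42 ± 0.349 CPM. For Steap4 they were Csnk2a2 (0.988), Elmsan1 (0.986), Mlph (0.978), Grem1 (0.977) and Gm44421 (0.974). In each of these 10 genes all knockouts stood above all controls, so the likeness contains the difference between groups.

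Iron genes outside the chosen set were examined in the same fit. Of 62 listed by function, 59 were in the table and 49 were tested, 10 being too low. In edgeR 2 rose, Heph and Mc4r, and 0 fell (1 at an unadjusted p of 0.05, and 1 each in DESeq2 and in limma voom). Their median log2 fold change was 0.11. Over all tested genes 3.44% were called higher. The 2 of 49 lie near that share, so nothing is read from this count. With no filter on low counts, 7 of 59 were called higher, against 2.86% of all genes: Heph, Mc4r, Hfe, Hp, Ltf, Steap1 and Tmprss6, of which the last 4 had been removed by the filter. Mc4r encodes a melanocortin receptor of appetite circuits that lipocalin 2 can bind in mice. It rose from 0.846 ± 0.246 to 2.44 ± 0.908 CPM (1.52 ± 0.35, edgeR adjusted p = 0.0260), and lost its call without control 1, 2 or 3 or knockout 2 or 5.

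Slc22a17, another receptor reported for lipocalin 2, stood at 136 ± 16.8 CPM across controls and 157 ± 18.3 CPM across knockouts (0.21 ± 0.12, edgeR adjusted p = 0.293). In the uptake group the duodenal reductase gene Cybrd1 had the next smallest p after Heph, at 0.73 ± 0.32 (edgeR adjusted p = 0.176). Of the 3 iron sensing genes none was called, against 6.43% of all tested genes. Aco1, which encodes iron regulatory protein 1, stood at 0.26 ± 0.15 (edgeR adjusted p = 0.305). Fbxl5, which marks the second such protein for breakdown, stood at -0.14 ± 0.14 (edgeR adjusted p = 0.577). In the hepcidin axis Hfe was at 1.28 ± 0.43 and Neo1 at 0.25 ± 0.13, with edgeR adjusted p of 0.0858 and 0.230. DESeq2 called Hfe higher.

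In edgeR no gene of mitochondrial iron or of heme passed, against 6.43% of all tested genes. At that share few calls are due in groups this small, so nothing is read from their lack. All 13 genes of mitochondrial iron and iron-sulfur clusters were tested and not called, with a median log2 fold change of 0.10. Isca1 (0.42 ± 0.16) and Lyrm4 (0.30 ± 0.15), both of cluster assembly, had the smallest p in this group, with edgeR adjusted p of 0.111 and 0.214. The 9 genes of heme synthesis had a median of -0.06. Alas2, the form of the first enzyme that red cell precursors use, was lowest at -0.86 ± 0.24 (edgeR adjusted p = 0.0516), just outside the threshold, and DESeq2 and limma voom called it lower. It stood at 8.04, 7.64, 7.32 and 5.79 CPM across controls and 3.20, 3.26, 6.25 and 3.12 CPM across knockouts 2 to 5, knockout 4 lying among the controls. In heme transport and degradation, Slc48a1 (0.22 ± 0.12) and the haptoglobin-hemoglobin receptor gene Cd163 (0.64 ± 0.33) did not pass, with edgeR adjusted p of 0.284 and 0.238. Pcbp1, an iron chaperone of ferritin, was at 0.38 ± 0.15 (edgeR adjusted p = 0.131).

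**Figure D4:**
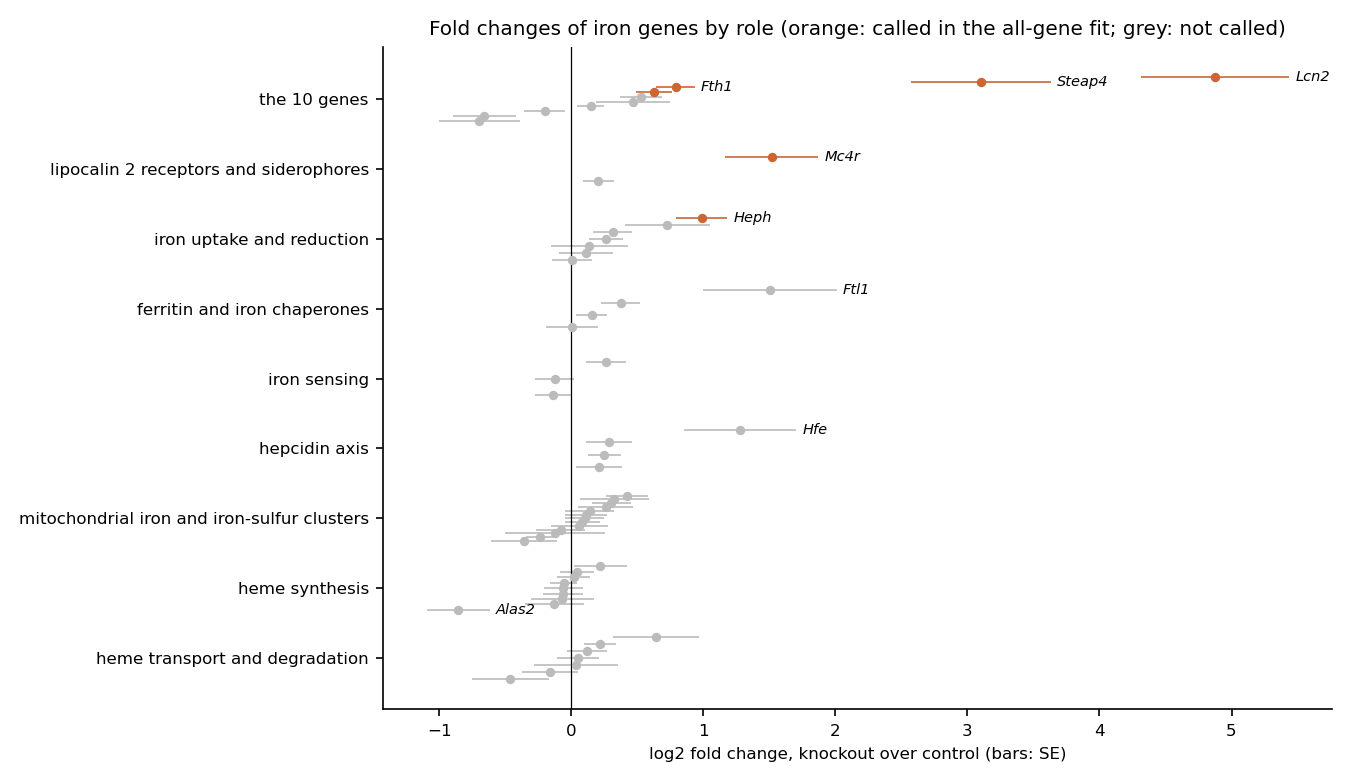
Log2 fold change of knockout over control (x axis, bars SE) for the 10 genes and for 49 other tested iron genes, grouped by role. Orange points were called in the fit over all genes. Lcn2 (4.87) and Steap4 (3.10) stand apart, and outside the set Mc4r and Heph are called.

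A further list held factors, receptors and the feedback gene Socs3 of signalling pathways known to act on Lcn2. Of its 13 genes in the table, 7 were called higher, against 3.44% of all tested genes, and none lower in edgeR (1 at an unadjusted p of 0.05, and none in DESeq2 or limma voom), and the median log2 fold change was 0.65. The results of some of them were known when the list was made. The interleukin 6 receptor gene Il6ra rose from 3.91 ± 0.535 to 9.29 ± 2.32 CPM (edgeR adjusted p = 0.00867) and was called in all 15 alternatives. The oncostatin M receptor gene Osmr rose by 1.35 ± 0.26 (edgeR adjusted p = 0.0135) and the cytokine feedback gene Socs3 by 1.72 ± 0.32 (edgeR adjusted p = 0.0118). Stat3 rose by 0.50 ± 0.12 (edgeR adjusted p = 0.0322), Il1r1 by 1.16 ± 0.20 (edgeR adjusted p = 0.00946) and Cebpb by 0.81 ± 0.22 (edgeR adjusted p = 0.0470). Cebpd was at 1.87, 2.07, 2.51 and 2.09 CPM across controls and at 15.8, 19.6, 3.62 and 14.0 CPM across knockouts 2 to 5 (edgeR adjusted p = 0.0153), knockout 4 again the lowest. Without control 2 only Il6ra of the 7 was called. Cebpb was called in 7 of the 15 alternatives, not in limma voom nor without any 1 of the controls, and its level in knockout 4 (6.48 CPM) lay within the control range. Stat3 was called in 9, Cebpd in 12 and Osmr in 13 of the 15. Nfkbiz, Nfkb1, Nfkb2, Rela, Il6st and Nr3c1 did not pass.

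Of 12 acute-phase genes in the table, 6 were high enough to test, and 1 was called higher, against 3.44% of all tested genes. Lbp, which binds bacterial lipopolysaccharide, rose from 2.17 ± 0.523 to 4.99 ± 1.65 CPM (edgeR adjusted p = 0.0241), and lost its call without control 1 or 2 or knockout 2 or 5. None of the 6 fell (none at an unadjusted p of 0.05, or in DESeq2 or limma voom). The median of the 6 was 1.24. The others did not pass: S100a9 at 3.74 ± 0.90, Lrg1 at 1.70 ± 0.48, Cd14 at 1.27 ± 0.38, C3 at 0.49 ± 0.42 and Serpina3n at 0.16 ± 0.73, with edgeR adjusted p of 0.0536, 0.0527, 0.0606, 0.508 and 0.920. Lbp, Lrg1 and Cd14 did not overlap between groups, against 16.2% of all tested genes. Controls held only 3 to 11 reads of Lrg1, 6 to 14 of Cd14 and 2 to 24 of S100a9. A gene can pass the filter through reads in the knockouts alone, so these fold changes and the median rest on low control counts. Serpina3n, an acute-phase gene of reactive astrocytes, stood at 5.96, 24.2, 4.42 and 24.0 CPM across controls and 16.2, 7.43, 32.1 and 9.28 CPM across knockouts.

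Levels of other cell types moved with some of these genes, and their part in the results was not tested. Neutrophils store lipocalin 2. The summed level of 9 neutrophil markers was 0.943 to 2.87 CPM across controls, 28.9, 29.0 and 22.7 CPM across knockouts 2, 3 and 5, and 2.57 CPM in knockout 4. In knockout 4 the sum lay within the control range, although S100a8 (0.292 CPM), Ngp (0.117 CPM) and Ltf (0.292 CPM) stood slightly above their highest control (0.219, 0.109 and 0.287 CPM). Lcn2 in that library was at 4.85 CPM against at most 0.718 CPM across controls. Of those 9, Mpo and Elane were at 0 in every control and in knockout 4, and Mpo also in knockout 2.

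Choroid plexus, which makes transferrin, also stood higher in knockouts, with 8 of 11 markers called and all 11 without overlap, against 3.44% of all tested genes called higher and 16.2% without overlap. Its summed markers were at 192, 176, 185 and 401 CPM across controls and at 864, 676, 779 and 866 CPM across knockouts. Enpp2 and Ttr made up most of this sum in every library. Enpp2 ran from 153.5 to 200.2 CPM across controls and from 270 to 320.5 CPM across knockouts. Ttr, which was not called (edgeR adjusted p = 0.183), was at 9.33, 8.52, 5.735 and 174 CPM across controls and 349.9 to 512.1 CPM across knockouts. The oligodendrocyte sum ran from 2640 to 3206 CPM across controls and from 3197 to 3735 CPM across knockouts. Microglia markers summed to 247 to 335 CPM across controls and 128 to 262 CPM across knockouts, and border macrophage markers to 12.2 to 19.6 and 15.5 to 33.1 CPM. Endothelial markers summed to 176 to 221 and 195 to 287 CPM, mural markers to 144 to 149 and 136 to 169 CPM. Astrocyte markers summed to 5825 to 6856 and 6257 to 7182 CPM, neuron markers to 8990 to 10300 and 8555 to 11350 CPM. Slc1a2 made up most of the astrocyte sum. Of the 8 astrocyte markers, 2 were called higher and 6 were not called, against 3.44% of all tested genes called higher. Gjb6, a gap junction gene, rose from 12.8 ± 2.14 to 36.0 ± 5.50 CPM (edgeR adjusted p = 0.00138). Aldh1l1, a folate enzyme gene, rose from 22.1 ± 3.12 to 33.6 ± 3.69 CPM (edgeR adjusted p = 0.0227). These 2 and Aldoc, which was not called, lay without overlap between groups, against 16.2% of all tested genes. The log2 fold changes of the 8 ran from -0.07 to 1.49, with a median of 0.23. Erythroid markers summed to 13.9 to 16.2 CPM across controls and 8.44, 9.24, 18.1 and 10.8 CPM across knockouts 2 to 5. Alas2 is 1 of the 5 genes in this sum, and none of the 5 was called in edgeR, against 6.43% of all tested genes. Of the globin genes, Hba-a1 stood at 3.16 ± 0.629 CPM across controls and 3.85 ± 1.62 CPM across knockouts. Hbb-bt stood at 0.742 ± 0.310 and 0.965 ± 0.499 CPM, and Hba-a2 at 1.95 ± 0.406 and 1.445 ± 0.509 CPM. Hbb-bs stood at 1.65 ± 0.267 and 1.41 ± 0.686 CPM, so the globin means moved both ways.

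**Figure D5:**
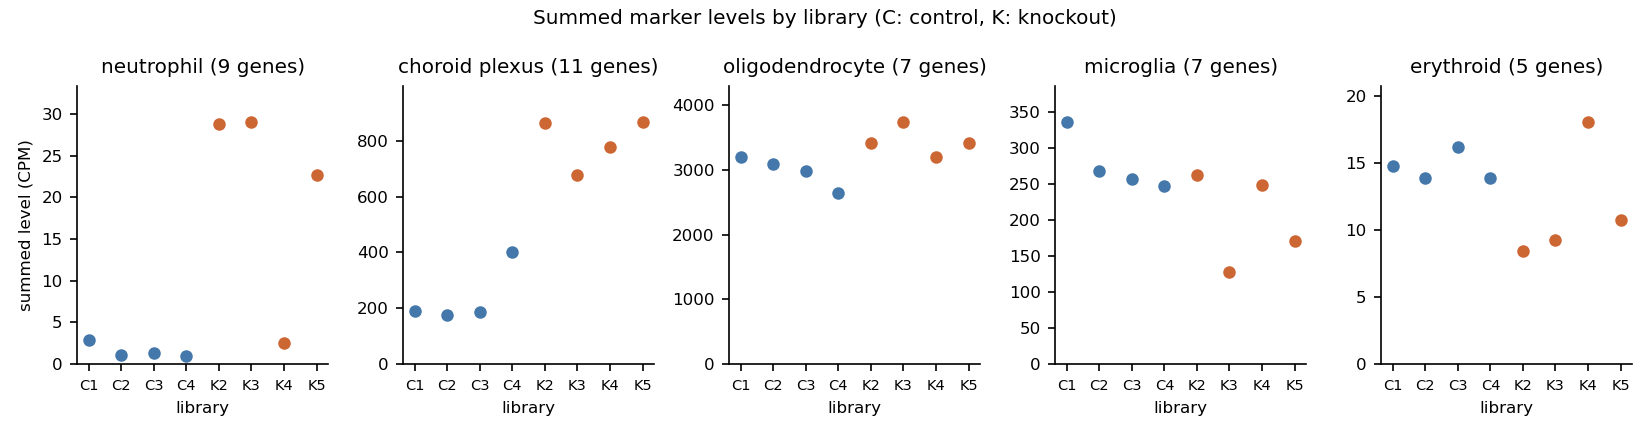
Summed CPM of marker genes (y axis, from 0) in each library, for neutrophils, choroid plexus, oligodendrocytes, microglia and red cells. Knockout 4 lies among the controls for neutrophil markers, and all knockouts exceed all controls for choroid plexus.

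Libraries held 13483354 to 17728963 counts, and the gene with the most counts, mt-Rnr2, took 17.3% to 25.2% of them. The targeted gene Map3k7 stood at 39.9 ± 2.88 CPM across controls and 38.7 ± 3.16 CPM across knockouts (edgeR adjusted p = 0.843), a whole-gene count that does not check the floxed part. Cdh5, whose promoter drives the recombinase, was at 9.26 to 11.3 CPM across controls and 25.4, 16.7, 11.1 and 27.4 CPM across knockouts 2 to 5. It was called higher (0.98 ± 0.24, edgeR adjusted p = 0.0377), with knockout 4 within the control range.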

How the data were processed

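Tools named in the submitters' processing notes are FastQC, HISAT and HISAT2, featureCounts and DESeq2, with GRCm38 as the build; their versions, roles and strand setting are not given in the sources used here. The deposited counts are whole numbers per gene and library. The deposited mean signal, log2 fold change, its error, the score (fold change over error) and the p-value columns are the authors' DESeq2 values, per the file headers. Of 29012 lines, 280 repeats were removed, which left 28732 genes. Names came from the table, positions and exon lengths from GENCODE M21 (28682 IDs matched).

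Genes passing filterByExpr (15564) were scaled by TMM and fitted with edgeR 4.0.16 (quasi-likelihood, robust; R 4.3.3) over 8 libraries without covariates, with Benjamini-Hochberg adjustment over all tested genes. Errors are standard errors for fold changes and SD for levels. Members and lists were chosen with earlier results of these data known. Named beyond the 10 members are, in the other iron list, all genes called and the 2 of smallest p in each role, all genes called in 3 further lists, and 5 likest genes each for Lcn2 and Steap4 (log2 CPM, prior count 2). The result of 1 gene that this rule names is not reported here. Steap1, Steap2, Ftl1's partner Ncoa4, Slc39a14, Slc39a8, Hmox2, Nfe2l2, Bach1, the factors that did not pass, Hp, Ltf, Tmprss6, Gjb6, Aldh1l1, Slc1a2, S100a8, Ngp, Mpo, Elane, Fth-ps2, Fth-ps3 and the acute-phase genes that did not pass were added after their values were seen. So were the globin genes, Enpp2, Ttr and Aldoc. Alternatives used DESeq2 1.42.0 and limma 3.58.1 (voom), other scalings and filters, an adjusted p of 0.1, and each library left out. On simulated data of 15300 genes with 200 changed, 30.3% of 1.5-fold, 64.1% of 2-fold and 95.2% of 4-fold changes were recovered. P-values measure the spread between libraries that may be technical.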

Additional observations from a re-analysis of the deposited data

Results flagged for a closer look

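Of the 20 sets of 4 libraries examined (10 genes in each group), 1 held a library far from the other 3, where chance gives about 1 in 20. Fth1 stood at 171.7 CPM in control 1, below the 209.6 to 214.8 CPM of the other controls, a library still on the control side of every knockout. With control 1 left out, Fth1 kept its call.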

How the results depend on the processing

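No paired analysis was possible because the sample titles share no number between groups (controls 1 to 4, knockouts 5 to 8); the knockout columns are numbered 2 to 5, which departs from those titles, so the column numbers tie no control to a knockout. Over 15 alternatives no gene of the set changed sign. Lcn2 was called in all 15 (log2 fold change 4.45 to 5.50 with 1 library left out), and Steap4 in all 14 that could test it (2.72 to 3.32). Cp lost its call without control 2, knockout 2 or knockout 5, and Fth1 without control 2 or knockout 5; the cause was not tested. The 4 members called higher became 2 to 5 with 1 library left out, and the 0 lower became 0 to 1. The 535 genes called higher and 466 lower overall became 93 to 1012 and 35 to 1043 with 1 library left out, 821 and 745 with no filter, 967 and 857 with DESeq2, and 1108 and 1075 at an adjusted p of 0.1. Other iron genes called higher numbered 2, and 7 with no filter or 0 to 5 with 1 library left out. Those called lower numbered 0, and 1 with DESeq2 size factors, no filter, DESeq2, limma voom or an adjusted p of 0.1, or 0 to 2 with 1 library left out. In the other 3 lists 10 were called higher and 0 lower, and 1 to 14 and 0 to 1 with 1 library left out. The order of the 10 levels per length was the same with the longest transcript in controls, and in knockouts Slc11a2 and Hmox1 changed places. Depth limits Lcn2 and Steap4, whose controls hold at most 10 reads.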
